A study of Mus musculus with 36 samples.

Results

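The genes described here make, carry, read and break down retinoic acid: Aldh1a2, Dhrs3, Crabp1, Crabp2, Rara, Rarb, Rarg, Cyp26a1 and Cyp26b1. They were taken by their gene symbols from the bulk RNA-seq tables of a mouse embryonic stem cell (ESC) differentiation course, where they are 9 of 54281 genes, and all 9 were among the 21601 genes with enough counts to be tested. The rule names them by role and uses no expression value, though earlier results of these data were known when they were chosen. ESCs cultured in serum and depleted of feeder cells were turned over 5 days into anterior neural progenitor cells (antNPCs) in N2B27 medium, with basic fibroblast growth factor until day 3. The B27 supplement of this medium lacked vitamin A, the precursor of retinoic acid, in every group.

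The KO group held the Tet1 knockout lines KO1 and KO15, made with the Tet1<tm1Koh> allele of the gene for the DNA dioxygenase TET1. Its controls, called WT, were the littermate lines WT7 and WT34, and all 4 were male lines of a B6 and 129S6 hybrid background. KO and WT each had 2 libraries on days 0, 1, 2 and 4, 4 libraries on day 3 and 3 libraries on day 5. The MUT group held CM59 and CM69, clonal lines derived from WT7 in which the catalytic site of TET1 was edited on both alleles, with 2 libraries on each of days 3 and 5. They were sequenced in experiment 3 together with 1 library a day of WT70, a line that the labels describe only as WT. Days 0, 3 and 5 of KO and WT came from experiment 1, and days 1 to 5 from experiment 2, in which day 5 held 1 library of each genotype, KO1 and WT7. A difference in level between day 0 and days 1, 2 or 4 therefore cannot be told apart from a difference between experiments. KO, WT and MUT are thus 2 lines each and WT70 is 1, and p-values measure the spread between libraries of these lines.

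Retinol taken up by a cell is oxidised to retinal and then, by retinaldehyde dehydrogenases such as ALDH1A2, to retinoic acid, which enters the nucleus and binds receptors of the RAR family. These receptors sit on direct repeats of a short hexamer together with an RXR partner and turn on their target genes when the ligand is bound. CYP26 enzymes oxidise retinoic acid and clear it, and both Cyp26a1 and Rarb are themselves classic targets of the receptors. In the gastrulating embryo Aldh1a2 is made in the mesoderm, Cyp26a1 marks the early streak and later the anterior neural plate, and an excess of retinoic acid posteriorises the neural tube.

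The promoters of Rarb and Cyp26a1 are shown because they held a receptor-type repeat near the start site and both genes passed in the comparisons below. The windows run from 250 bases before to 50 bases after the start site in RefSeq's annotation of GRCm38.p6, and the capitals mark the repeat, a pair of GTTCA motifs in the pattern NGTTCANNNNNNGTTCA, searched on both strands. The Rarb window lies at chr14:16575427-16575726 on the minus strand, and its repeat begins 53 bases before the start site, at position -53. That start site lies inside the Rarb gene as annotated, chr14:16430839-16819156, which has 7 transcripts. The levels given below are for the whole gene. The Cyp26a1 window lies at chr19:37697558-37697857 on the plus strand, with the repeat on the opposite strand and beginning at position -32.
Rarb: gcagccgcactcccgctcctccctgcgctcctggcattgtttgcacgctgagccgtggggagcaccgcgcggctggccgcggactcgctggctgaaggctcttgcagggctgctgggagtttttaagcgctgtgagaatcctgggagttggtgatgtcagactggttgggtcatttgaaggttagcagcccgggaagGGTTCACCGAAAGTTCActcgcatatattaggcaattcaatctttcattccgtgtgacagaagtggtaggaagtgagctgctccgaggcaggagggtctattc
Cyp26a1: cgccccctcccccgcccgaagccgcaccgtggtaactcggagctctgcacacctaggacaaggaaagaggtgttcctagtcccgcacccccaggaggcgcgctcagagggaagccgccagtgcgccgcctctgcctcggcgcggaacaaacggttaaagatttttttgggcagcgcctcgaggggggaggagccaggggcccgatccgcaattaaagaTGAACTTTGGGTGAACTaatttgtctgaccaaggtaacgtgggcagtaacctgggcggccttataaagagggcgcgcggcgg

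Windows were found for 8 of the 9 genes, 14 windows in all, and the repeat stood in those of Rarb and Cyp26a1 alone. Across all genes it stood in 25 of 32851 windows of the same length, 0.0761%. The receptor repeats DR1 and DR2, with 1 or 2 bases between the hexamers, stood in 0.222% and 0.268% of all windows and in no window of the 8 genes. They were searched with a different hexamer, RGKTCA, where R is A or G and K is G or T. With that hexamer and 5 bases between, the share was 0.0974% of all windows. A match of letters is a description of the sequence and not a binding site. Of the 24 genes that carry the repeat, 8 were tested, and the median log2 fold change of these 8 in KO against WT was -0.31 on days 3 and 4 and -0.28 on day 5. The genes with the repeat that passed were Cyp26a1 on day 3, Cyp26a1, Rarb and Cfap45 on day 4, and Cyp26a1 and Rarb on day 5, so 6 tested genes with the same letters gave 1 call over those days.

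The 36 libraries held 10139521 to 26307363 counts, and levels are given as CPM, counts relative to the library total, scaled by the trimmed mean of M values. Tet1 itself ranged over 28.9 to 83.0 CPM in KO, 158 to 319 in MUT, 169 to 254 in WT70 and 108 to 1431 in WT, so no KO library reached the lowest WT library. A gene passed where its log2 fold change was beyond 1 and its adjusted p under 0.05, by edgeR's quasi-likelihood test over all tested genes. The WT7 library of day 5 in experiment 2, WT day 5 replicate 3, stood apart from the other WT libraries of that day, which were of experiment 1. The primitive streak markers T, Eomes, Mixl1, Mesp1 and Gsc summed to 99.1 CPM in it, against 13.8 and 14.1 CPM in the other two. Its neural progenitor markers Sox1, Pax6, Lhx5 and Nes summed to 257 CPM, against 298 and 313 CPM, and results that turn on this library are given without it as well. The WT libraries of day 4 in experiment 2 had streak sums of 90.8 and 92.6 CPM. In KO day 5 replicate 3, also of experiment 2, the neural markers summed to 43.0 CPM, against 90.5 and 92.4 CPM in experiment 1. A difference between libraries and a difference between experiments cannot be told apart on day 5.

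Between days 0 and 2 none of the 9 genes passed in KO against WT by edgeR, and DESeq2 and limma called none either. The share of all tested genes that passed was 0.866% on day 0, 0.634% on day 1 and 0.616% on day 2. At an unadjusted p under 0.05 there were 2 on day 0, Rara and Rarg, 1 on day 1, Rarg, and 1 on day 2, Crabp1. On day 3, 2 of the 9 passed, Cyp26a1 higher and Crabp2 lower in KO, with 3.96% of all tested genes. On day 4, 4 of 9 passed, with Aldh1a2, Cyp26a1 and Rarb higher and Crabp2 lower, where 7.68% of all tested genes passed. On day 5, Cyp26a1 and Rarb were higher and Crabp2 lower, 3 of 9 beside 11.7% of all tested genes. The median log2 fold change of the 9 was -0.03 on day 3, 0.36 on day 4 and 0.56 on day 5, with a median of all tested genes near 0. In these bulk cultures, fewer cells of a type and less RNA per cell cannot be told apart.

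**Figure D1:**
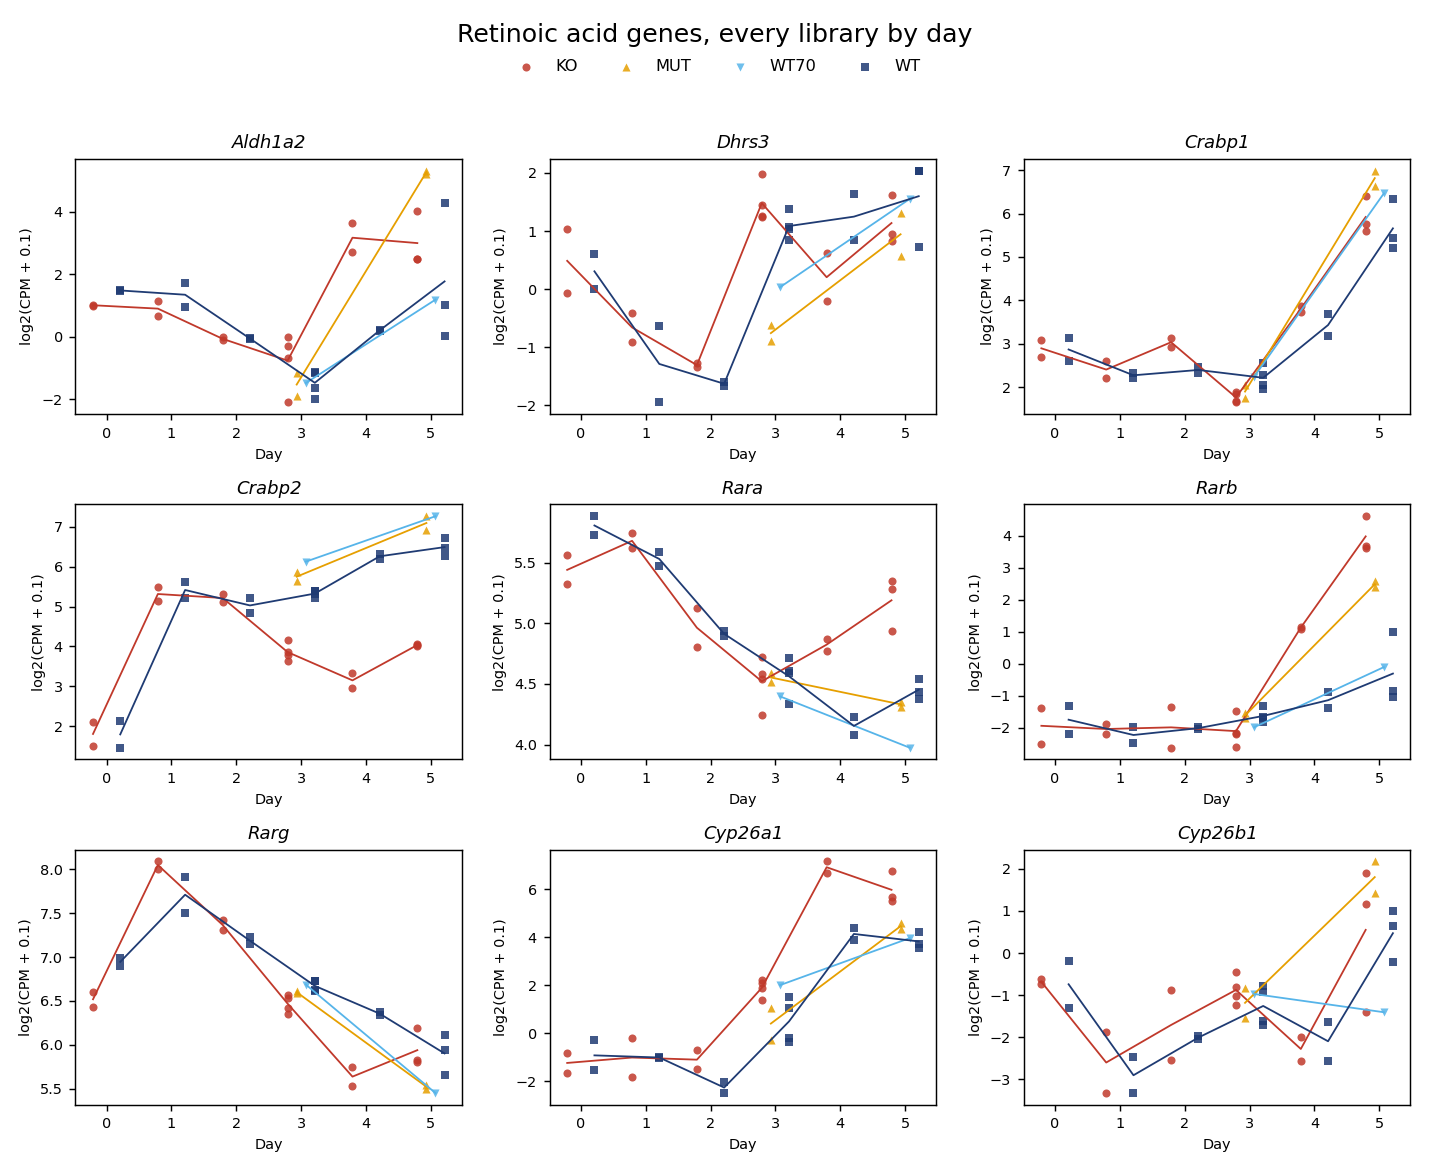
Each panel shows 1 of the 9 genes as log2(CPM + 0.1) in every library over days 0 to 5, with KO, MUT, WT70 and WT in their own colours and lines through the group means. Crabp2 parts from day 3, with KO between 12.3 and 17.9 CPM and WT between 37.0 and 41.8 CPM, and Rarb parts on days 4 and 5.

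Aldh1a2 (ENSMUSG00000013584.5, chr9:71215789-71296243, plus strand) encodes the dehydrogenase that makes most of the retinoic acid of the early embryo. In WT its level fell after day 0: 2.64 and 2.72 CPM on day 0, 1.83 and 3.21 on day 1, 0.862 and 0.850 on day 2, and 0.150 to 0.359 CPM on day 3. The change from day 0 to day 3 was -3.99 in WT (SE 0.90, adjusted p = 0.000691) and -2.39 in KO (SE 0.85, adjusted p = 0.0257) on the log2 scale. The KO call was lost without KO day 0 replicate 1, KO day 0 replicate 2 or KO day 3 replicate 1, with adjusted p of 0.0928, 0.0837 and 0.0679, and held in 11 of 16 alternatives.

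On day 4 Aldh1a2 had 6.42 and 12.2 CPM in KO, against 1.04 and 1.06 CPM in WT. Both KO libraries lay above both WT libraries, KO15 above KO1. The log2 fold change was 3.14 (SE 0.82, adjusted p = 0.00774), and the call was lost without KO day 4 replicate 2 (2.63, adjusted p = 0.0746), WT day 4 replicate 1 (3.15, adjusted p = 0.0716) or WT day 4 replicate 2 (3.17, adjusted p = 0.0722). On day 5 it had 5.45, 16.3 and 5.43 CPM in KO, against 0.908, 1.93 and 19.1 CPM in WT. The highest of the 6 values was the WT library that stood apart, so the groups overlapped, and the difference did not pass (0.96, 95% interval -0.35 to 2.27, adjusted p = 0.288). Without that library the log2 fold change was 2.80 (adjusted p = 7.25e-05), and without KO day 5 replicate 3 it was 2.06 (adjusted p = 0.0127). Within experiment 1 it was 2.95 (adjusted p = 0.00117), while in experiment 2, with 1 library of each genotype, it was -1.81 (adjusted p = 0.0212).

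In MUT cells Aldh1a2 reached the highest values of any library, 39.6 and 37.1 CPM on day 5, against 2.17 CPM in WT70. The log2 fold change was 4.14 (SE 1.02, adjusted p = 0.0230). It was 3.22 against WT7 and WT34 of the same day (adjusted p = 0.00185). The call against WT70 was lost without MUT replicate 1 (adjusted p = 0.0674) or MUT replicate 2 (adjusted p = 0.0636), where each arm then had 1 library whose spread was taken from the other groups. On day 3, before the rise, the values were 0.341 and 0.170 CPM in MUT and 0.256 CPM in WT70. The KO effect on Aldh1a2 minus the MUT effect, a contrast in the same model, was -3.18 on day 5 and did not pass. It ranged from -4.10 to -1.35 over the alternatives and passed in 5 of 18. With WT7 and WT34 in place of WT70 the WT terms cancel. The contrast is then KO minus MUT directly, across experiments, and was -2.26 (adjusted p = 0.00487).

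Dhrs3 (ENSMUSG00000066026.14, chr4:144892827-144928209, plus strand) encodes a reductase that turns retinal back into retinol and so limits synthesis. It was low throughout, between 0.159 and 4.01 CPM in WT and between 0.293 and 3.84 CPM in KO. The lowest libraries of both genotypes were those of days 1 and 2. On day 4 it had 1.44 and 0.767 CPM in KO, against 1.71 and 3.03 CPM in WT, a difference that did not pass (-1.09, adjusted p = 0.103). It was higher on day 3 than on day 0 in WT (1.14, SE 0.42, adjusted p = 0.0301) and in KO (1.26, SE 0.41, adjusted p = 0.0138). The WT call was lost without WT day 0 replicate 2 (0.78, adjusted p = 0.285), WT day 3 replicate 2 (adjusted p = 0.0539) or WT day 3 replicate 3 (adjusted p = 0.0537), and the KO call without KO day 0 replicate 1 (0.77, adjusted p = 0.235). In all, the KO call held in 11 of 16 alternatives and the WT call in 6 of 16, the WT call being lost too in experiment 1 alone (0.94, adjusted p = 0.0930), without the experiment term (0.83, adjusted p = 0.147) and with summed libraries (0.75, adjusted p = 0.188).

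Crabp2 (ENSMUSG00000004885.5, chr3:87948666-87953376, plus strand) encodes the cellular binding protein that hands retinoic acid to the receptors in the nucleus. Its level was already above that of day 0 on day 1 in both genotypes, across experiments. On day 0 it had 4.20 and 2.75 CPM in KO, against 4.27 and 2.66 CPM in WT, and on day 1 it had 34.9 and 45.2 CPM in KO, against 48.8 and 37.1 CPM in WT. On day 2 it still had 34.3 and 40.0 CPM in KO, against 37.2 and 28.4 CPM in WT. The values of the genotypes overlapped on each of these 3 days.

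From day 3 on, no KO library reached the lowest WT library of Crabp2. On day 3 it had 13.6, 14.4, 12.3 and 17.9 CPM in KO, against 41.8, 41.7, 39.7 and 37.0 CPM in WT, a log2 fold change of -1.45 (SE 0.14, adjusted p = 5.06e-08). On day 4 it had 7.72 and 9.97 CPM in KO, against 79.5 and 73.6 CPM in WT (-3.12, SE 0.22, adjusted p = 1.56e-10). Both KO values lay below all KO values of day 3, and both WT values above all WT values of day 3. On day 5 it had 16.7, 16.3 and 15.9 CPM in KO, against 77.5, 88.8 and 105 CPM in WT (-2.47, SE 0.17, adjusted p = 2.65e-11). Within experiment 1 the difference was -1.57 on day 3 and -2.32 on day 5, and within experiment 2 it was -1.31 and -2.72. No alternative reversed it.

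In MUT cells the carrier did not differ from WT70 past the threshold on either day. Crabp2 had 121 and 154 CPM in MUT on day 5, against 154 CPM in WT70 (-0.16, 95% interval -0.61 to 0.30, adjusted p = 0.845); against WT7 and WT34 of experiments 1 and 2 the value was 0.63 (adjusted p = 0.00812), under the fold threshold. On day 3 it had 49.4 and 58.3 CPM in MUT, against 69.7 CPM in WT70 (-0.37, 95% interval -0.83 to 0.09, adjusted p = 0.930). The KO effect minus the MUT effect, a contrast of both comparisons in the same model, was -2.31 on day 5 (SE 0.29, adjusted p = 9.96e-06), and it stayed past the threshold in 18 of 18 alternatives. On day 3 the same contrast was -1.08 (SE 0.27, adjusted p = 0.0642). It did not pass there, while DESeq2 gave an adjusted p of 0.0106 for a contrast of -1.07, and leaving out KO day 3 replicate 4 gave -1.20 (adjusted p = 0.0246). With the line as a block it was -1.13 (adjusted p = 0.0471).

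**Figure D2:**
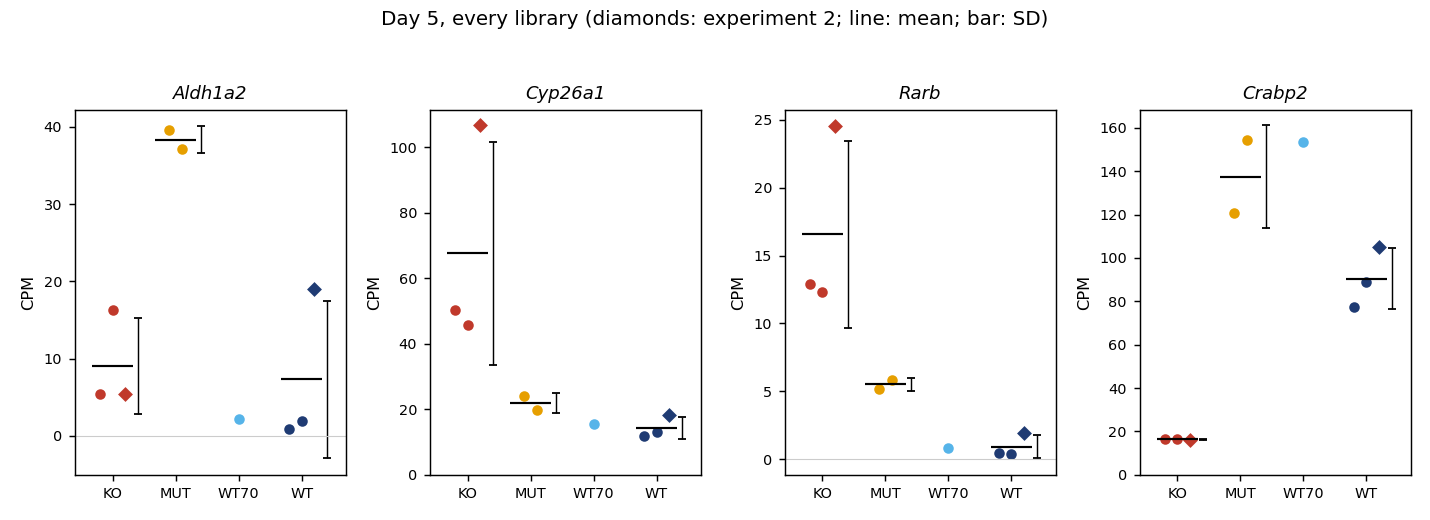
CPM on day 5 of Aldh1a2, Cyp26a1, Rarb and Crabp2 in each library, on a linear axis, with KO, MUT, WT70 and WT from left to right, diamonds for experiment 2, a line at the mean and a bar for the SD. The 3 KO libraries of Crabp2 sit at 15.9 to 16.7 CPM with MUT, WT70 and WT all at 77.5 CPM or more, and the WT library at 19.1 CPM of Aldh1a2 is the one that stood apart.

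Crabp1 (ENSMUSG00000032291.8, chr9:54764748-54773110, plus strand), the other carrier, which also brings retinoic acid to the enzymes that degrade it, rose late in every genotype. In WT it had 5.82, 4.74, 4.05 and 3.80 CPM on day 3, 12.8 and 8.94 CPM on day 4, and 37.0, 43.3 and 80.1 CPM on day 5. In KO it had 3.11, 3.60, 3.46 and 3.04 CPM on day 3, 13.3 and 14.6 CPM on day 4, and 48.4, 53.8 and 85.2 CPM on day 5. The experiment 2 library was the highest of its genotype on day 5 in both. The change from day 3 to day 5 was 4.29 in KO (SE 0.22, adjusted p = 2.51e-14) and 3.57 in WT (SE 0.21, adjusted p = 1.30e-12), and these did not differ past the threshold (0.72, adjusted p = 0.0973), though they did without WT day 5 replicate 3 (1.03, adjusted p = 0.00894). Crabp1 had 99.8 and 127 CPM in MUT on day 5, against 88.2 CPM in WT70 (0.36, adjusted p = 0.656). Of the carriers, Crabp2 passed in KO against WT from day 3 on, and Crabp1 passed on no day.

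Of the receptors, Rarg (ENSMUSG00000001288.15, chr15:102234938-102257517, minus strand) had the highest TPM, a transcript abundance that allows for gene length, in 31 of 36 libraries, and Rarb the fewest in 36 of 36. Rarg was highest on day 1, with 257 and 272 CPM in KO and 181 and 241 CPM in WT, which did not overlap (0.32, adjusted p = 0.181). It was lower on day 5 than on day 3 in KO (-0.51, adjusted p = 0.000116) and in WT (-0.74, adjusted p = 1.67e-06), by less than the fold threshold. On day 4 it had 46.1 and 53.5 CPM in KO, against 82.7 and 80.8 CPM in WT, a difference of -0.72 (SE 0.13, adjusted p = 0.000288) whose size is under the fold threshold. On day 5 the values overlapped, 56.6, 55.8 and 72.8 CPM in KO and 61.4, 68.9 and 50.3 CPM in WT (0.03, 95% interval -0.20 to 0.25).

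Rara (ENSMUSG00000037992.16, chr11:98927818-98974942, plus strand), the receptor found in most tissues, fell in WT over the first days, by 1.26 on the log2 scale between day 0 and day 3 (SE 0.13, adjusted p = 1.01e-08), beside -0.93 in KO. From day 4 it was higher in KO, by less than the fold threshold. It had 27.3 and 29.2 CPM in KO on day 4, against 18.6 and 16.8 CPM in WT (0.67, SE 0.15, adjusted p = 0.00214). By day 5 it had 38.9, 40.5 and 30.5 CPM in KO, against 23.2, 21.5 and 20.7 CPM in WT (0.76, SE 0.12, adjusted p = 2.24e-05). No KO library overlapped with WT on either day. On log2(TPM + 1) with limma both calls passed, 1.32 on day 4 (adjusted p = 0.0133) and 1.39 on day 5 (adjusted p = 0.000782). The 2 scales departed for Rara. In MUT its mean went from 23.4 CPM on day 3 to 20.0 CPM on day 5, but from 5.86 to 9.54 TPM. For MUT against WT70 on day 5 the alternatives gave -0.11 to 1.03. In MUT it had 19.8 and 20.3 CPM on day 5, against 15.6 CPM in WT70 (0.36, 95% interval -0.02 to 0.74, adjusted p = 0.379).

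Rarb (ENSMUSG00000017491.9, chr14:16430839-16819156, minus strand) encodes the receptor best known as a target of retinoic acid itself, and its internal promoter is the first of those shown. It was near the limit of detection until day 3, at 0.0654 to 0.265 CPM in KO and 0.185 to 0.300 CPM in WT on that day, which is 10 counts over the 4 KO libraries and 15 over the 4 WT libraries. On day 4 it had 2.05 and 2.15 CPM in KO, against 0.445 and 0.281 CPM in WT (2.51, SE 0.51, adjusted p = 0.000843), which passed in 12 of 13 alternatives and not with limma (0.38, adjusted p = 0.301). On day 5 it had 12.9, 12.3 and 24.5 CPM in KO, against 0.454, 0.386 and 1.89 CPM in WT. Every KO library lay above every WT library on both days, and the highest WT value was again the library that stood apart. The day 5 log2 fold change was 4.26 (SE 0.37, adjusted p = 1.73e-09), a 19.2-fold difference. Without WT day 5 replicate 3 it was 5.05 (adjusted p = 1.31e-09). It passed in 17 of 17 alternatives, and was 4.89 in experiment 1 and 3.69 in experiment 2.

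Rarb rose with time in WT as well, by 2.09 from day 3 to day 5 (SE 0.44, adjusted p = 0.000357), but that call was lost without WT day 5 replicate 3 (1.25, adjusted p = 0.0614). In KO the rise was 6.97 (SE 0.40, adjusted p = 2.49e-13). The KO change minus the WT change was 4.87 (SE 0.66, adjusted p = 4.38e-06), past the threshold in 25 of 25 alternatives, and 5.64 without WT day 5 replicate 3. Only Rarb and Crabp2 among the 9 passed this test of the difference, beside 9.43% of all tested genes, and the Crabp2 contrast of -1.01 (SE 0.21, adjusted p = 0.000998) lay so near the fold threshold that it was lost without KO day 3 replicate 4 (-0.90), KO day 5 replicate 3 (-0.97), WT day 3 replicate 4 (-0.95) or WT day 5 replicate 3 (-0.90), and with the line as a block (-0.94). MUT cells had 5.19 and 5.86 CPM of Rarb on day 5, against 0.834 CPM in WT70 (2.72, SE 0.56, adjusted p = 0.00683), and 3.07 against WT7 and WT34 (adjusted p = 1.01e-05). The KO effect on Rarb minus the MUT effect was 1.54 on day 5 (SE 0.64, adjusted p = 0.194), so the greater size in KO did not pass; without WT day 5 replicate 3 it was 2.33 (adjusted p = 0.0224).

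Cyp26a1 (ENSMUSG00000024987.6, chr19:37697798-37701536, plus strand) encodes the main enzyme that clears retinoic acid in the gastrulating embryo. It was below 1 CPM in both genotypes through day 2. On day 3 it had 4.50, 2.49, 4.11 and 3.63 CPM in KO, against 2.70, 1.94, 0.675 and 0.775 CPM in WT, and the lowest KO library lay below the highest WT library. The log2 fold change of 1.32 (SE 0.39, adjusted p = 0.0205) came with a difference between experiments: 0.59 in experiment 1 (adjusted p = 0.242) and 2.39 in experiment 2 (adjusted p = 0.00111). The call was lost without KO day 3 replicate 1 (1.15, adjusted p = 0.0725), WT day 3 replicate 3 (1.09, adjusted p = 0.0746) or WT day 3 replicate 4 (0.91, adjusted p = 0.149).

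By day 4 Cyp26a1 had reached 143 and 102 CPM in KO, against 14.8 and 20.5 CPM in WT (2.79, SE 0.39, adjusted p = 8.28e-06). On day 5 it had 50.3, 45.8 and 107 CPM in KO, against 11.7, 13.0 and 18.2 CPM in WT (2.20, SE 0.32, adjusted p = 5.36e-06). The lowest KO library was above the highest WT library on both days, and the day 5 call held in 17 of 17 alternatives. In MUT it had 24.0 and 19.9 CPM on day 5, against 15.5 CPM in WT70 (0.50, 95% interval -0.46 to 1.47, adjusted p = 0.721). The KO effect minus the MUT effect was 1.70 (SE 0.55, adjusted p = 0.0693), which did not pass. It passed without KO day 5 replicate 2 (1.89, adjusted p = 0.0467). KO minus MUT directly, with no WT and across experiments, was 1.46 (adjusted p = 0.00300) and passed.

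Cyp26b1 (ENSMUSG00000063415.12, chr6:84571414-84593908, minus strand), another clearing enzyme, stayed under 1 CPM until day 4 in every library and had at most 4.42 CPM in any. On day 5 it had 2.13, 3.61 and 0.281 CPM in KO, against 0.756, 1.47 and 1.89 CPM in WT (0.56, 95% interval -0.68 to 1.80). The KO libraries lay on both sides of WT, with the low one from experiment 2. From day 3 to day 5 it rose in KO (2.09, SE 0.61, adjusted p = 0.00586) and in WT (1.94, SE 0.61, adjusted p = 0.0122). In experiment 2 alone the KO value was -0.95 (adjusted p = 0.581). The KO call was lost without KO day 5 replicate 2 (1.43, adjusted p = 0.0768) and the WT call without WT day 5 replicate 3 (1.43, adjusted p = 0.137). In MUT it had 2.59 and 4.42 CPM on day 5, against 0.278 CPM in WT70 (3.62, SE 1.08, adjusted p = 0.0670). The value was 1.32 against WT7 and WT34 (adjusted p = 0.148). Against WT70 it passed in 3 of 11 alternatives, without the filter, with summed libraries and with the compared libraries alone.

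**Figure D3:**
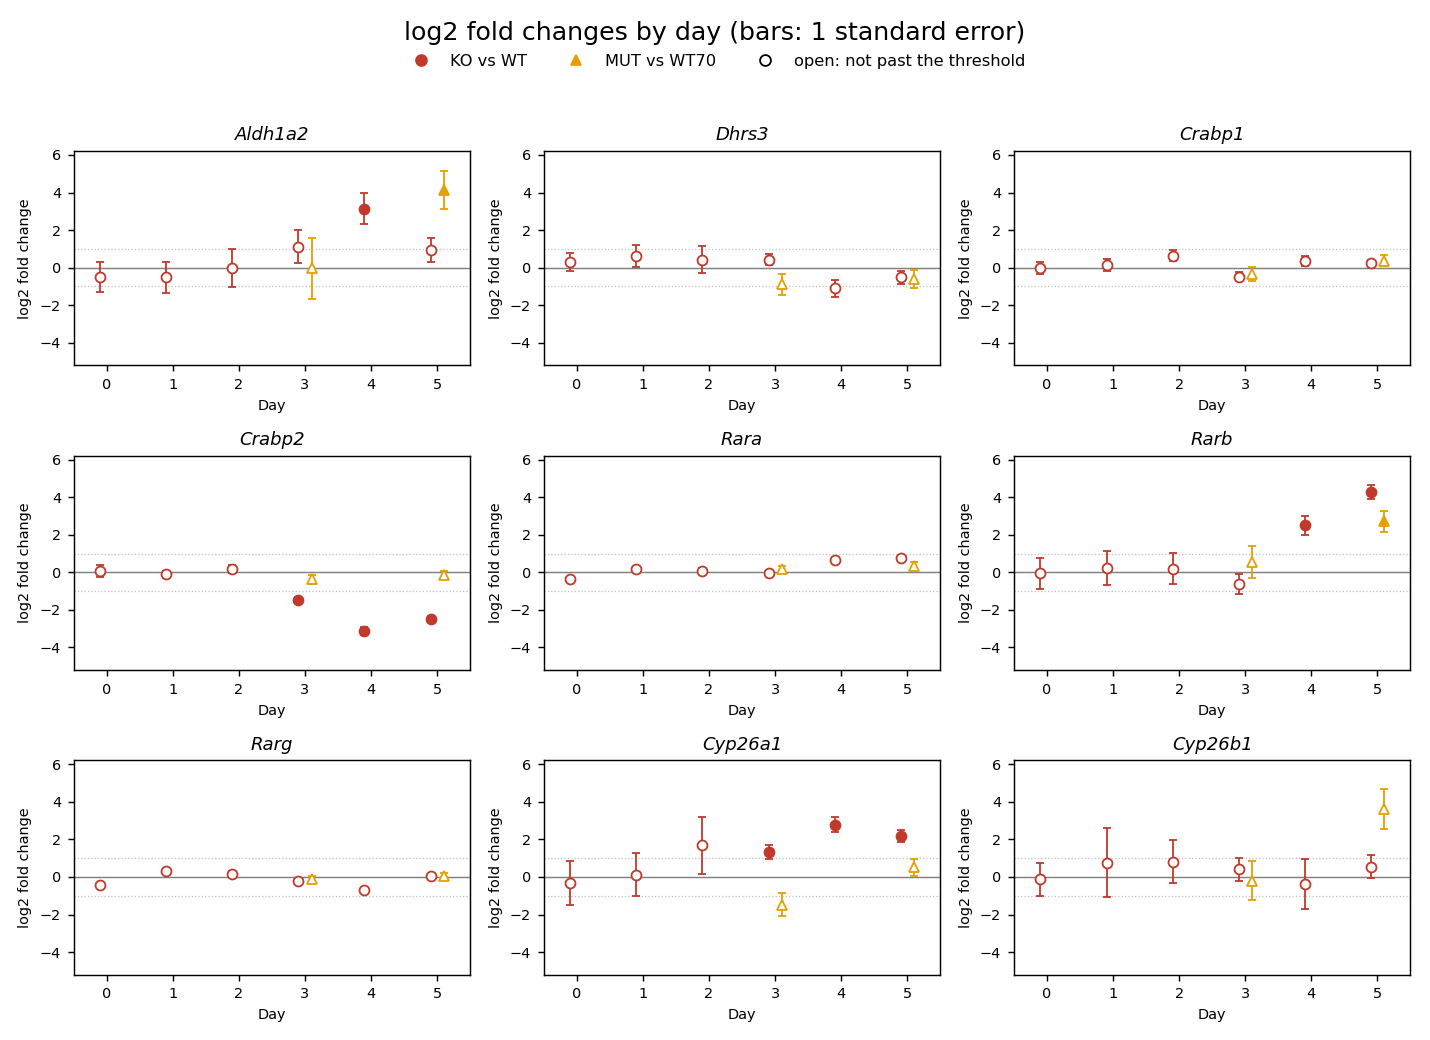
Log2 fold change of each of the 9 genes in KO against WT on days 0 to 5, and in MUT against WT70 on days 3 and 5, as points with bars of 1 standard error, filled where the gene passed. Crabp2 in KO moves to -3.12 on day 4 while its MUT points lie at -0.37 and -0.16, and Rarb lies above 0 in both on day 5.

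Set side by side, 2 of the 9 genes passed in MUT against WT70 on day 5, Aldh1a2 and Rarb, beside 1.88% of all tested genes. On day 3 none passed by edgeR, DESeq2 or limma, 1 reached an unadjusted p under 0.05 (Cyp26a1, -1.48), and 0.148% of all tested genes passed. The contrast of the KO and MUT effects passed for Crabp2 alone on day 5, beside 3.62% of all tested genes, with 5 genes at an unadjusted p under 0.05. On day 3 it passed for none by edgeR and limma and for 1, Crabp2, by DESeq2, with 2 at an unadjusted p under 0.05 and 0.394% of all tested genes past the threshold. WT70 had 1 library a day, so a line difference between WT70 and WT7, the parent of the MUT lines, cannot be told apart from the mutation. With WT7 and WT34 as controls, Dhrs3 also passed in MUT on day 3 (-2.32, adjusted p = 0.00102), and Crabp1 on day 5 (1.26, adjusted p = 0.000245), across experiments.

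The course over time was broad in every genotype. From day 0 to day 3, 4 of the 9 genes passed in WT (22.5% of all tested genes) and 5 in KO (21.2%), and Aldh1a2, Crabp2 and Dhrs3 were among both. Rara passed in WT alone and Cyp26a1 and Crabp1 in KO alone, with the difference between those changes not tested. In the other genotype Rara stood at -0.93 in KO (adjusted p = 1.82e-06), and in WT Crabp1 stood at -0.90 (adjusted p = 0.00913) and Cyp26a1 at 1.60 (adjusted p = 0.109), the last past the threshold in 6 of 16 alternatives. From day 3 to day 5, 6 passed in WT (15.5%), 5 in KO (22.3%) and 8 in MUT (17.4%). Aldh1a2, Cyp26a1, Cyp26b1, Rarb and Crabp1 rose in all of these genotypes. Crabp2 rose by 1.19 in WT (SE 0.14, adjusted p = 2.14e-07) and by 1.35 in MUT (SE 0.19, adjusted p = 2.04e-06), with 0.17 in KO (SE 0.16, 95% interval -0.16 to 0.51). In MUT Dhrs3 also rose (1.91, adjusted p = 0.00161) and Rarg fell (-1.08, adjusted p = 2.91e-07). WT70, the control of the same experiment, moved the same way in both genes. It had 0.923 CPM of Dhrs3 on day 3 and 2.83 CPM on day 5, and 103 and 43.6 CPM of Rarg.

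The order of the levels changed with genotype by day 5. In TPM, Crabp1 led in KO with 39.2 to 73.9, followed by Rarg with 10.5 to 52.8, Cyp26a1 with 14.4 to 36.1, Rara with 10.9 to 16.1 and Crabp2 with 11.2 to 11.9 TPM. Each of these ranges overlapped the next, and only Crabp2 was apart from the gene below it, Rarb, with 2.20 to 4.95 TPM. By the mean Crabp2 led in MUT, with 81.4 to 106 TPM, which overlapped Crabp1 at 78.3 to 102 TPM. Crabp2 had 102 TPM in WT70. In WT it had 52.9 to 78.4 TPM, which overlapped Crabp1 at 29.4 to 68.4 TPM. The Rarg spread in KO came from replicate 3, with 52.8 TPM beside 10.5 and 13.3 TPM, while its CPM was 72.8 beside 56.6 and 55.8. The gap was thus larger on the scale that allows for transcript length.

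Of 33 other genes of the pathway, 27 were tested, and Adh1, Adh7, Aldh1a1, Bco1, Dhrs9 and Lrat had too few counts. None passed in KO against WT on days 0 to 2 by edgeR or limma, and DESeq2 called 1, Stra6 on day 2, while 10, 12 and 6 had an unadjusted p under 0.05 on days 0, 1 and 2. On day 3, 2 of the 27 were higher in KO, beside 3.96% of all tested genes, the homeobox genes Meis2 (1.19, adjusted p = 8.93e-05) and Cdx1 (2.69, adjusted p = 0.0280). The Cdx1 call was lost without any 1 of KO day 3 replicate 1 (2.54), KO day 3 replicate 2 (2.50), WT day 3 replicate 1 (2.23), WT day 3 replicate 2 (2.84) and WT day 3 replicate 3 (2.48). With the line as a block neither passed, at 0.99 for Meis2 and 2.71 for Cdx1 (adjusted p = 0.120). On day 4, 2 were higher, beside 7.68% of all tested genes, Hoxb1 (3.80, adjusted p = 0.0258) and the transglutaminase Tgm2 (1.35, adjusted p = 0.0120). Of these, Hoxb1 was lost without KO day 4 replicate 2 (3.42) or either WT library (3.85 without WT day 4 replicate 1 and 3.78 without WT day 4 replicate 2), and Tgm2 without KO day 4 replicate 1 (1.08), WT day 4 replicate 1 (1.37) or WT day 4 replicate 2 (1.38). With the line as a block Hoxb1 did not pass on day 4 (2.73, adjusted p = 0.242) or on day 5 (1.95, adjusted p = 0.187). On day 5, 3 were higher and 1 lower, 4 of 27 beside 11.7% of all tested genes, with a median of 0.06 over the 27. The 3 are among the 6 response genes tested.

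Tgm2 had 17.2, 12.0 and 19.2 CPM in KO on day 5, against 2.50, 2.86 and 3.64 CPM in WT (2.42, SE 0.29, adjusted p = 3.97e-07). The lowest KO library lay above the highest WT library. Meis1 had 15.5 to 18.9 CPM in the 3 KO libraries, against 2.12, 2.08 and 12.1 CPM in WT (1.84, SE 0.41, adjusted p = 0.00111). Hoxb1 had 4.72, 6.63 and 1.69 CPM in KO, against 0.0756, 0 and 3.10 CPM in WT (2.58, adjusted p = 0.0497). Hoxb1, an early Hox gene of the hindbrain, overlapped between the groups through the experiment 2 libraries. In experiment 2 alone its difference was -0.88, with an adjusted p of 0.541. The Hoxb1 call was lost without KO day 5 replicate 1 (2.50), KO day 5 replicate 2 (2.14), WT day 5 replicate 1 (1.63) or WT day 5 replicate 2 (1.56). Without WT day 5 replicate 3 the log2 fold change was 3.01 for Meis1 and 6.85 for Hoxb1, and without KO day 5 replicate 3 it was 4.44 for Hoxb1. In experiment 2 alone Meis1 did not pass (0.64, adjusted p = 0.550), while Tgm2 passed in 17 of 17 alternatives.

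Cyp26c1, a further clearing enzyme of the same family, was lower in KO while Cyp26a1 was higher. It had 0.332, 0.118 and 0.187 CPM in KO on day 5, against 2.80, 2.55 and 1.08 CPM in WT (-3.26, SE 0.79, adjusted p = 0.00275). All 3 KO libraries were below all 3 WT libraries, and in experiment 2 alone the difference did not pass (-2.48, adjusted p = 0.430). In MUT it had 0.317 and 0.144 CPM, against 1.83 CPM in WT70, and did not pass (-2.96, 95% interval -5.07 to -0.85, adjusted p = 0.127). None of the 27 genes passed in MUT against WT70 on day 5 by edgeR or DESeq2, with 9 at an unadjusted p under 0.05, and limma called 1, Hoxb1. The KO effect minus the MUT effect passed for none of the 27 by edgeR or DESeq2 on either day, and for 1, Tgm2 on day 5, by limma, with 0 at an unadjusted p under 0.05 on day 3 and 6 on day 5.

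The KO change from day 3 to day 5 was greater than the WT change for the response genes Meis1 (2.18, adjusted p = 0.0136) and Tgm2 (1.88, adjusted p = 0.000667). It was smaller for Cyp26c1 (-4.73, adjusted p = 0.0382) and Meis2 (-1.13, adjusted p = 0.00192). The Meis1 call was lost without WT day 5 replicate 1 (1.76) or WT day 5 replicate 2 (1.76), and that of Meis2 without WT day 5 replicate 3 (-0.90). In experiment 2 alone neither Meis1 (0.61, adjusted p = 0.743) nor Tgm2 (1.34, adjusted p = 0.0566) passed, and Meis2 did not in experiment 1 alone (-0.87, adjusted p = 0.0986) or with limma (-0.53, adjusted p = 0.508). The Cyp26c1 value rests on 4 counts over the KO libraries and 1 over the WT libraries of day 3, and its call was lost in 14 of 24 alternatives, the line as a block among them (-4.75, adjusted p = 0.0586).

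**Figure D4:**
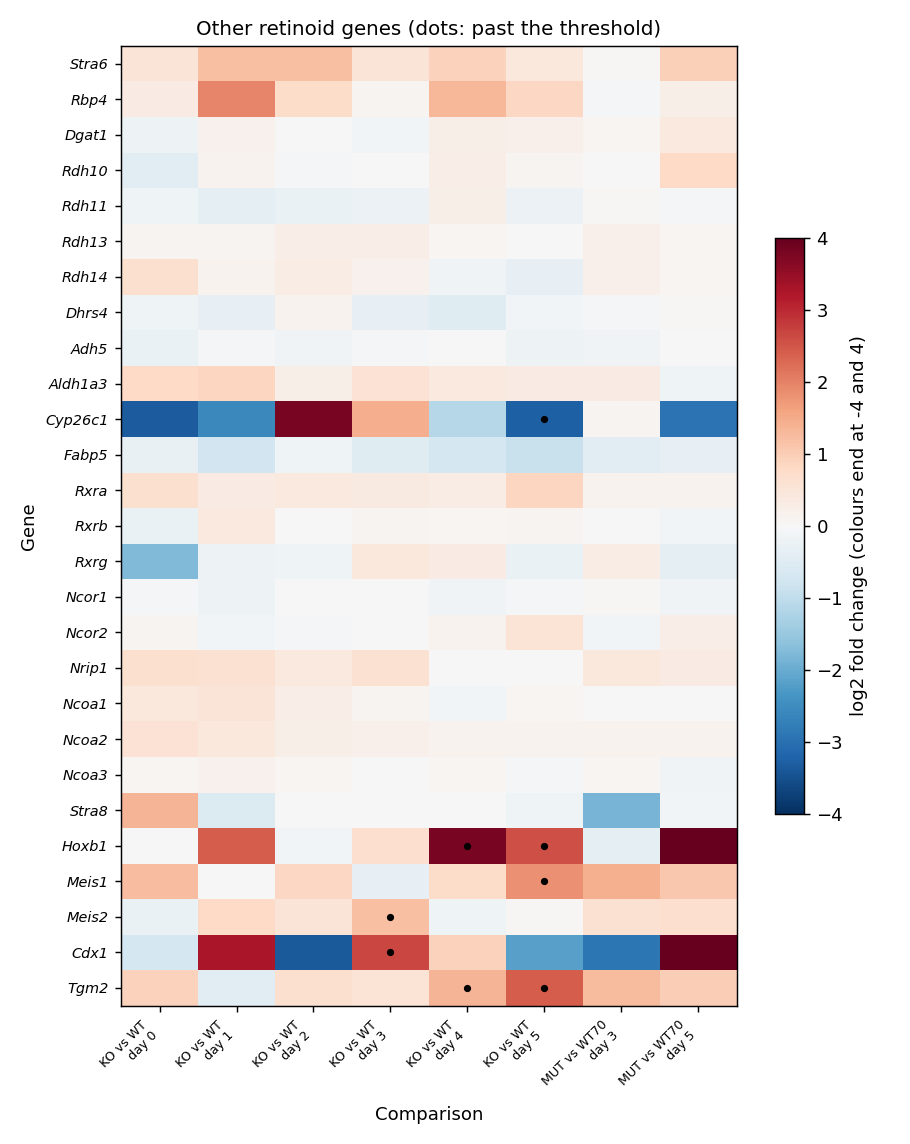
Log2 fold change of the other retinoid genes in KO against WT by day and in MUT against WT70, as a colour map with genes grouped by role and a dot where the gene passed. Of the response genes, 3 passed as higher in KO on day 5, with Tgm2 at 2.42 and Meis1 at 1.84, and Cyp26c1 stands at -3.26.

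Markers of other cell types moved with these genes. The 5 primitive streak markers summed to 391 to 689 CPM in KO on day 3, against 12.0 to 24.7 CPM in WT, and to 136 to 164 CPM in KO on day 5, against 13.8, 14.1 and 99.1 CPM in WT. The definitive endoderm markers Sox17, Foxa2, Cer1, Hhex and Cxcr4 summed to 365 and 370 CPM in KO on day 4, against 39.3 and 40.8 CPM in WT, and all 5 passed. The cardiac and lateral mesoderm markers Gata4, Hand2, Nkx2-5, Tbx5 and Isl1 summed to 113 to 182 CPM in KO on day 5, against 3.10 to 16.5 CPM in WT, with all 5 past the threshold. The neural progenitor markers summed to 43.0 to 92.4 CPM in KO on day 5, against 257 to 313 CPM in WT, and 4 of 4 passed, so the markers of the labelled cell type were lower in KO.

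In MUT on day 5 the streak markers summed to 115 and 95.2 CPM, against 15.2 CPM in WT70, where Mixl1 was at 0. The paraxial mesoderm markers Tbx6, Msgn1, Meox1 and Tcf15 summed to 29.4 and 30.8 CPM, against 3.45 CPM. The definitive endoderm markers summed to 139 and 127 CPM in MUT, against 62.6 CPM in WT70, and the cardiac and lateral mesoderm markers to 37.8 and 44.0 CPM, against 13.0 CPM. The extraembryonic endoderm markers, Afp, Ttr, Apoa1, Amn, Cubn and Sox7, summed to 63.1 and 110 CPM in MUT, against 31.0 CPM in WT70. These sums were higher on day 3, at 121 and 179 CPM in MUT, against 55.3 CPM in WT70. The neural markers summed to 257 and 294 CPM in MUT, against 257 CPM in WT70. The part of these other cell types in the changes of the retinoid genes was not tested.

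Over the 30 KO, WT7 and WT34 libraries, the genes whose log2 CPM was most like that of Cyp26a1 were Aplnr (r = 0.97), Plxna2 (0.96) and Cer1 (0.95), and for Rarb they were Shh (0.96), Cpm (0.95) and Hmbox1 (0.94). For Crabp2 they were Lrp2 (0.94), Armcx1 and Phf6 (0.90 each), and for Aldh1a2 Hs3st3b1 (0.84), Col13a1 and Foxc2 (0.82 each). Among the 9 themselves, Rarb was most like Crabp1 (r = 0.81) and Cyp26a1 (0.78), and Cyp26a1 and Rarg ran most opposed (-0.82). These correlations describe libraries that share lines, days and experiments, and 10768 genes entered the search.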

How the data were processed

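Poly(A) RNA of 36 cultures was sequenced as stranded single-end reads. Per the methods and the submitters' processing notes, the authors trimmed reads with Trim Galore 0.6.4 and quantified them with Salmon 0.14.1 and tximport on GENCODE M23 (mm10); they used R 4.0.2 and DESeq2 1.30.0. The deposited expected counts were estimated per gene and need not be whole (73.8% were), and they were rounded here. The TPM values deposited by the authors were used for levels between genes and for limma. Gene coordinates are those of GENCODE M21 on GRCm38, whose identifiers for the 9 genes equal those of the files, and promoter windows are RefSeq's on GRCm38.p6.

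All 36 libraries entered a single edgeR 4.0.16 fit (R 4.3.3) with 16 group means and a term for experiment 2, which left 19 residual degrees of freedom. TMM factors and filterByExpr (minimum count 10, minimum total 15) left 21601 of 54281 genes. P-values were adjusted by Benjamini and Hochberg over all of these, and a gene passed under 0.05 with a log2 fold change beyond 1. WT70, with 1 library a day, is assumed to vary like the other groups. The fit was tested on simulated data: over 19156 genes it recovered 82 of 100 genes changed 2-fold and 99 of 100 changed 4-fold for KO against WT on day 4, and 44 of 100 changed 2-fold for MUT against WT70 on day 5. Only genes above a minimum mean count were changed, every gene had the same spread, and recovery was by adjusted p without the fold threshold. Recovery of genes with few counts, such as Rarb and Cyp26b1, was not tested.

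Alternatives were DESeq2 1.42.0, limma 3.58.1 on log2(TPM + 1), RLE factors, no filter, a log2 fold threshold of 1.5, no experiment term, the compared libraries alone, each experiment alone, summed libraries per line, WT7 and WT34 in place of WT70, each library left out, and a replicate block for line. With WT7 and WT34 in place of WT70, the KO effect minus the MUT effect becomes KO minus MUT directly. A difference between experiments is then not removed. The lines pair libraries because the same line stands on each day. The difference in log2 CPM between the lines of a genotype was taken within each day and experiment, with day 5 left out. Over 15 pairs of these sets the correlation of the differences had a median of 0.03 in KO (-0.07 to 0.07) and 0.03 in WT (-0.01 to 0.07). The named genes were the 9, the other retinoid genes that passed, at most 6 a comparison, and for each of the 9 the 3 tested genes most alike in log2 CPM with a mean of at least 5 CPM. The 9 genes, the lists and the tests were chosen with earlier results of these data known. A few genes of the pathway list are not reported here.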

Additional observations from a re-analysis of the deposited data

Results flagged for a closer look

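Of 27 tested differences between effects, 4 stood out. The KO effect on Crabp2 differed from the MUT effect on day 5, by -2.31 (adjusted p = 9.96e-06). The change from day 3 to day 5 differed between KO and WT for Rarb, by 4.87 (adjusted p = 4.38e-06), for Crabp2, by -1.01 (adjusted p = 0.000998), and for Rara, by 0.79 (adjusted p = 0.000581), the last under the fold threshold. In 18 sets of 4 libraries, the 9 genes on day 3 in KO and in WT, no library lay far from the others, where chance gives about 1 in 20 sets.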

How the results depend on the processing

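Of 2273 values of the 9 genes under alternatives, 2155 kept their direction and their side of the threshold, 62 lost a call, 54 gained one and 2 reversed; sign changes of values that passed in neither setting were not counted. The reversals came in experiment 2 alone, with 1 library of each genotype on day 5: Aldh1a2 in KO against WT on day 5 (-1.81) and Cyp26b1 in KO from day 3 to day 5 (-0.95). The Hoxb1 difference of day 5 reversed there too (-0.88), and of 229 values of the other named retinoid genes 174 kept their call and 54 lost it. The causes were not tested.

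The number of the 9 genes past the threshold moved as follows. In KO against WT it was 2 on day 3, but 0 with a log2 fold threshold of 1.5, 1 with limma and 1 in experiment 1 alone, and on day 5 it was 3, but 5 in experiment 1 alone. From day 0 to day 3 it was 4 in WT, but 2 with the threshold of 1.5 and 1 with limma, and 5 in KO, but 3 with the threshold of 1.5, 3 without the experiment term and 1 with limma. For the KO change minus the WT change it was 2, but 1 with the threshold of 1.5, DESeq2, RLE factors or the replicate block. In MUT against WT70 it was 0 on day 3, but 1 with WT7 and WT34, without the filter or with the compared libraries alone, and 2 on day 5, but 1 without the experiment term. For the KO effect minus the MUT effect it was 0 on day 3. It was 2 there for KO minus MUT directly, across experiments, and 2 without the filter. It was 1 with DESeq2, the replicate block, summed libraries or the compared libraries alone. For day 5 it was 1, but 5 for KO minus MUT directly. It was 3 without the filter, 3 with summed libraries and 2 with the compared libraries alone.

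With each library left out in turn, the counts in KO against WT were 0 to 0 on days 0, 1 and 2, 1 to 2 on day 3, 3 to 4 on day 4 and 3 to 4 on day 5. They were 0 to 0 on day 3 and 1 to 1 on day 5 in MUT against WT70, 0 to 1 on day 3 and 1 to 3 on day 5 for the KO effect minus the MUT effect, and 1 to 2 for the KO change minus the WT change. Over time they were 3 to 5 in WT and 4 to 5 in KO from day 0 to day 3, and 4 to 6 in WT, 4 to 5 in KO and 8 to 8 in MUT from day 3 to day 5.

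Pairing the libraries by line, as a replicate block, changed the call of Crabp2 alone among the 9 genes, in the KO change minus the WT change (-0.94) and in the KO effect minus the MUT effect on day 3 (-1.13, adjusted p = 0.0471). Among the other named retinoid genes it ended the calls of Cdx1 and Meis2 on day 3 (2.71 and 0.99), Hoxb1 on days 4 and 5 (2.73 and 1.95) and Cyp26c1 in the KO change minus the WT change (-4.75), and it changed no other call named. Counts over all genes moved by more than 1.5 times in 59 of 257 alternatives, and those of MUT against WT70 ranged from 14 to 674 on day 3 and from 150 to 1857 on day 5. Depth limits the precision of Rarb, Cyp26b1 and Aldh1a2 on day 3, which had 1 to 21 counts in a library.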
